A study of Homo sapiens with 29 samples.

Results

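Focal adhesion kinase (FAK), its relative PYK2, and the scaffolds and adaptors that they phosphorylate or bind were followed as 10 genes in PC9 cells: PTK2 (FAK), PTK2B (PYK2), SRC, NEDD9, BCAR1 (p130Cas), EFS, BCAR3, PXN (paxillin), CRK and DOCK1. They were chosen by name, for what their proteins are known to do, and with earlier results of these data known. They are 10 of the 35579 genes to which the transcripts in the data could be summed. Of the 10, 9 had a mean of at least 10 TPM (a level per transcript length, scaled to the same total in each library) over all libraries and were tested. EFS fell below that limit.

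PC9 is a lung adenocarcinoma cell line with an activating EGFR mutation, and erlotinib is an inhibitor of the EGFR kinase. RNA was sequenced from 10 lines. PAR is the parental line, and KO was made from it with CRISPR-Cas9 and a guide to the AXL kinase domain. The other 8 lines are KO cells that were given AXL back by lentivirus and sorted on GFP as populations. WT received the unmutated receptor, KD a receptor without kinase activity, and Y634F, Y643F, Y698F, Y726F, Y750F and Y821F each a receptor in which phenylalanine replaces the tyrosine that its name gives. Dishes seeded with 300000 cells were left untreated (UT, 10 lines), or kept for 24 h in 1 μM erlotinib (E, 10 lines). In EA (9 lines) the AXL-activating antibody AF154 was added at 300 ng/mL on top of the inhibitor. KO with EA was not analysed here. Each line and treatment was 1 library, 29 in all, so the lines stand in for replicates of a treatment and share 1 parental population. The p-values measure the spread between lines that carry different receptors, not between repeated cultures.

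At integrin contacts with the matrix, FAK autophosphorylates and recruits SRC, and the pair phosphorylates paxillin and the CAS scaffolds (BCAR1, NEDD9 and EFS). Phosphorylated CAS binds the adaptor CRK, which brings in DOCK1, an activator of RAC, and BCAR3 is a docking protein that binds CAS and promotes SRC signalling through it. In lung and other carcinomas these proteins are known for their part in spreading, migration and survival of attached cells. RNA levels say nothing of their phosphorylation.

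The libraries were broadly alike in what was checked, with PAR at both ends of the median level. Over the tested genes, the median log2(TPM + 1) was highest in untreated PAR (5.15) and lowest in PAR with E (4.94). PAR with E also had the fewest genes at 10 TPM or more, 8643 against up to 9305 in Y643F with E. Mitochondrial transcripts took between 11.4% and 17.4% of the TPM, with the highest shares in PAR with E and in Y821F with EA. TPM keeps no read number, so the depth behind a value is unknown. Epithelial markers were high, with a sum of EPCAM, CDH1, KRT8, KRT18 and KRT19 between 4251 and 5955 TPM. Leukocyte markers summed to between 28.0 and 68.5 TPM, nearly all CD68, with CD3E at 0 in every library, and fibroblast markers to between 16.2 and 72.9 TPM, nearly all COL1A1, with COL1A2 at most at 0.34 TPM. Endothelial markers summed to between 2.05 and 10.2 TPM. The lung adenocarcinoma markers NKX2-1, NAPSA and SFTPB summed to at most 5.51 TPM, and NKX2-1 to at most 0.354 TPM, so the labelled tissue of origin was not visible in them. The targeted gene AXL had its lowest level in KO (92.4 TPM in UT, 79.3 TPM in E), and was between 217 and 852 TPM in the other libraries. In bulk RNA, fewer cells that express a gene and less of its RNA per cell cannot be told apart.

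NEDD9 and BCAR3 each have more than 1 annotated start that carried RNA here, and the sequences before those starts are shown because the starts of BCAR3 behaved differently. All 4 are read from RefSeq promoter windows (GRCh38.p14), 5′ to 3′ on the minus strand, and end before the RefSeq start, except the last, which is cut at 30 bases into the annotated transcript. The first holds the first 14 bases of its transcript. The motifs named below them were searched on both strands, and matches are in capitals. NEDD9-202 is the main NEDD9 transcript (chr6:11232669-11232918), NEDD9-208 starts far upstream (chr6:11382349-11382598), BCAR3-201 is the main coding BCAR3 transcript (chr1:93681838-93682087), and BCAR3-205 is a BCAR3 transcript with no annotated coding sequence (chr1:93775415-93775636).
NEDD9-202: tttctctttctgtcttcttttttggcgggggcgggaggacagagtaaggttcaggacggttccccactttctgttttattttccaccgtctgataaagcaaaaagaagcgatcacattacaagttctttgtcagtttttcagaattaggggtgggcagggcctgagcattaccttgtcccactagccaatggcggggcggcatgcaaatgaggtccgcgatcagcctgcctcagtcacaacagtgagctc
NEDD9-208: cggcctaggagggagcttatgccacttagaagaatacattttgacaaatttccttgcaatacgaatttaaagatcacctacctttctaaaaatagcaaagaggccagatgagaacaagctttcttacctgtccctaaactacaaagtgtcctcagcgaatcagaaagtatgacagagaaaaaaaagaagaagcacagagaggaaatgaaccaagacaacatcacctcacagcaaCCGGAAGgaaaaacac
BCAR3-201: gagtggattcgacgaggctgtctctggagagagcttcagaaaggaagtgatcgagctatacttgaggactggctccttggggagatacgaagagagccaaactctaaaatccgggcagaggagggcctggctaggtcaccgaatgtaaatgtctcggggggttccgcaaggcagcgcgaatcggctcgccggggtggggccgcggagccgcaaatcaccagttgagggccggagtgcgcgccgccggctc
BCAR3-205: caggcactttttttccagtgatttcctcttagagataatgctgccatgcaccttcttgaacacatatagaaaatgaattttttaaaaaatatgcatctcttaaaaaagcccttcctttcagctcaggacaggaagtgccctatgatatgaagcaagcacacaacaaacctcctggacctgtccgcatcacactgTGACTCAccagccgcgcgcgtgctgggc
The capitals in NEDD9-208 mark CCGGAAG, the ETS motif searched for, whose first base lies 16 bases before the start. This motif was present in 8.48% of 34943 RefSeq windows of 250 bases. The shorter ETS core GGAA was not searched for and is not marked where it occurs. In BCAR3-205 the capitals mark TGACTCA, which begins at base 3 of the annotated transcript. It is a match to the AP-1 motif TGANTCA, which was present in 6.59% of the windows. The TEAD motif GGAATG (11.9% of windows) and the FOXO motif TGTTTAC (2.98%) had no match in any of the 4. The window of BCAR3-201 was 61.2% G and C and that of BCAR3-205 was 45.0%, against a median of 58.0% over all windows. A match is a description of letters and not of binding.

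Erlotinib was followed by a large rise of NEDD9, smaller rises of SRC and PTK2B, and falls of BCAR3, PXN and BCAR1. A small fall of PTK2 itself depended on the scaling. The fall of BCAR3 lay in a transcript without a coding sequence, and its protein-coding transcripts changed by -0.06 (limma, adjusted p = 0.0926). Of the 9 genes tested, 8 passed the threshold between E and UT (limma, line as a block, adjusted p under 0.05), 3 higher and 5 lower. Over all 9085 genes tested, 79.0% passed, 36.4% higher and 42.6% lower, so the count for these genes was close to that for genes at large. What set NEDD9 apart was the size: its change ranked 119 of 9085 by absolute size, while the other 8 ranked between 2108 and 8490. The ranges of UT and E did not overlap for 4 of the 9 (NEDD9, SRC, BCAR3 and PXN), against 36.5% of all genes tested. The ranges of UT and EA did not overlap for the same 4, against 30.7% of all genes.

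**Figure D1:**
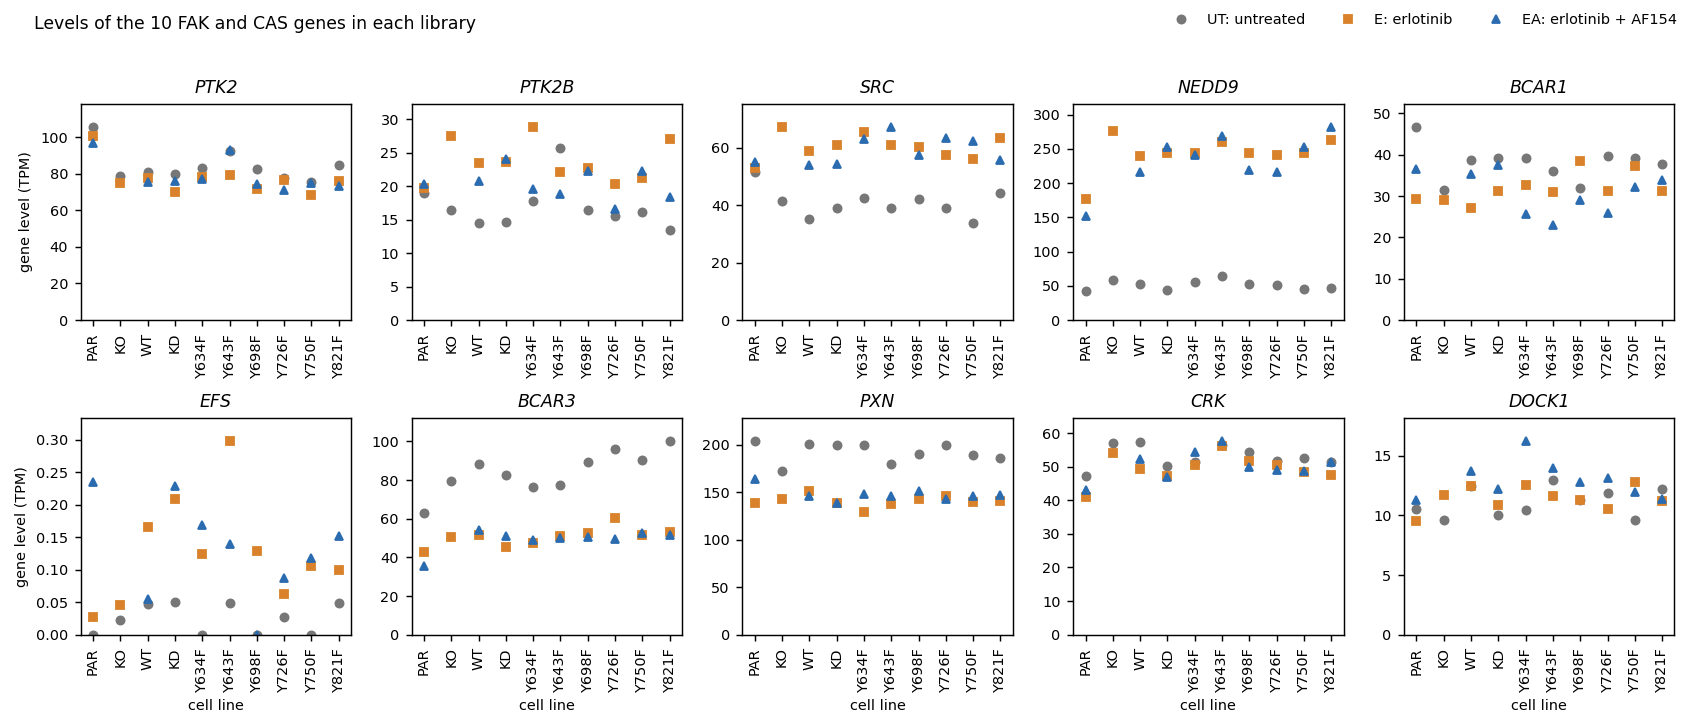
Gene level in TPM (y axis, from 0, own scale per panel) of the 10 genes in each of 10 lines (x axis) for UT (grey circles), E (orange squares) and EA (blue triangles), 1 library per point. NEDD9 was at 42.7 to 65.0 TPM in UT and at 177 TPM or above in E, and EFS stayed at or below 0.30 TPM.

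The kinases came first in the pathway. PTK2 (ENSG00000169398, chromosome 8 from 140657900 to 141002216, GENCODE release 29 on GRCh38) lay between 75.3 and 106 TPM in UT (median 81.6), between 68.6 and 101 TPM in E (median 76.3) and between 70.9 and 96.7 TPM in EA (median 75.2). PAR was the highest line in all 3 treatments, and the ranges of the treatments overlapped. PTK2 was lower with E in 10 of 10 lines, by a log2 change of -0.12 (SE 0.03, adjusted p = 0.00252). After centring library medians the adjusted p was 0.104, and after quantile normalization it was 0.430, so a fall of this size depended on the scaling. Its main transcript PTK2-228 (43.8% of the gene's TPM) changed by -0.10 (SE 0.05, adjusted p = 0.146 over 47921 transcripts, of which 44.7% passed).

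PTK2B (ENSG00000120899, chromosome 8 from 27311482 to 27459391), the FAK relative that responds to calcium, was the least abundant of the 3 kinases in every treatment, by TPM, a level per length. UT libraries lay between 13.5 and 25.7 TPM (median 16.3), E libraries between 19.8 and 28.9 TPM (median 23.1) and EA libraries between 16.7 and 24.2 TPM (median 20.3). Untreated Y643F was the highest UT library, with the others at 19.1 TPM or below, and it was the only line in which PTK2B was lower with E. In PAR the level went from 19.1 to 19.8 TPM. The log2 change with E was 0.47 (SE 0.10, adjusted p = 0.000389), higher in 9 of 10 lines. The transcript PTK2B-201, 59.5% of the total, rose by 0.40 (SE 0.06, adjusted p = 0.000194) in 10 of 10 lines with no overlap, from 8.53 to 11.5 TPM in UT to 11.6 to 15.5 TPM in E.

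SRC (ENSG00000197122, chromosome 20 from 37344685 to 37406050), the kinase that FAK recruits, lay between 33.8 and 51.6 TPM in UT (median 40.2), between 53.0 and 67.2 TPM in E (median 60.5) and between 53.9 and 67.2 TPM in EA (median 57.5). The highest UT library and the lowest E library were both PAR. SRC rose with E by 0.56 (SE 0.06, adjusted p = 4.449e-07), a 1.47-fold change, in 10 of 10 lines. Its coding transcripts SRC-201 (43.5% of the total) and SRC-204 (23.5%) rose by 0.61 (SE 0.07, adjusted p = 1.149e-05) and 0.30 (SE 0.09, adjusted p = 0.0125). The short SRC-211, of 446 bases with no annotated coding sequence, rose by 0.73 (SE 0.15, adjusted p = 0.00149).

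Among the CAS scaffolds, NEDD9 (ENSG00000111859, chromosome 6 from 11183298 to 11382348) moved most. In UT its level was 42.7 TPM in PAR, 43.9 in KD, 45.4 in Y750F, 46.3 in Y821F, 50.7 in Y726F, 52.0 in Y698F, 52.8 in WT, 56.2 in Y634F, 58.3 in KO and 65.0 in Y643F. With E it was 177 TPM in PAR, 240 in WT, 241 in Y726F, 243 in Y634F, 244 in Y698F, KD and Y750F, 260 in Y643F, 263 in Y821F and 275 in KO. Every treated library was above every untreated one, and PAR was the lowest in each treatment. The log2 change was 2.23 (SE 0.05, 95% interval 2.12 to 2.33, adjusted p = 5.726e-14), a 4.68-fold rise in 10 of 10 lines, between 1.98 in Y643F and 2.48 in Y821F. Under every alternative run, leaving out each line included, it lay between 2.20 and 2.30. With it, NEDD9 went from about the level of CRK, whose UT range it overlapped, to the most abundant of the 10 genes.

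Both NEDD9 starts whose upstream sequences are printed above rose. NEDD9-202, 83.7% of the gene's TPM, went from between 35.5 and 56.0 TPM (median 42.2) to between 155 and 228 TPM (median 209), by 2.25 (SE 0.06, adjusted p = 1.388e-10). NEDD9-208, 12.0% of the total and coding for a protein of the same length (833 residues), went from between 0.0011 and 9.37 TPM (median 6.61) to between 14.0 and 44.9 TPM (median 24.2), by 2.09 (SE 0.24, adjusted p = 2.026e-05). Neither transcript's UT and E ranges overlapped, and the share of NEDD9-208 had a median of 12.97% in UT and 10.3% in E. The division of reads between transcripts that share exons is the authors' kallisto assignment. An antisense gene is annotated over NEDD9, others over BCAR3 and PXN, and they were not analysed here. Strand handling is not given in the sources used here, so reads from both strands could not be told apart.

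BCAR1 (ENSG00000050820, chromosome 16 from 75228187 to 75268053), the founding CAS scaffold, lay between 31.6 and 46.8 TPM in UT (median 39.0), between 27.1 and 38.6 TPM in E (median 31.2) and between 23.0 and 37.4 TPM in EA (median 32.3). These ranges overlapped. With E it changed by -0.25 (SE 0.07, adjusted p = 0.00503) and was lower in 9 of 10 lines, the exception being Y698F (32.0 to 38.6 TPM). Its main transcript BCAR1-207 (55.6%) changed by -0.13 (SE 0.08, adjusted p = 0.197). In UT, NEDD9 and BCAR1 were 51.3 ± 7.1 and 38.0 ± 4.3 TPM (SD, n = 10), and with E they were 243 ± 26 and 31.9 ± 3.6 TPM. EFS (ENSG00000100842, chromosome 14 from 23356402 to 23365752), the third CAS scaffold, was listed between 0 and 0.051 TPM in UT, 0.027 and 0.30 TPM in E, and 0 and 0.23 TPM in EA, with a mean of 0.093 TPM.

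BCAR3 (ENSG00000137936, chromosome 1 from 93561786 to 93847150), which docks on CAS scaffolds, fell with E in 10 of 10 lines. Its UT libraries lay between 63.2 TPM (PAR) and 99.99 TPM (Y821F), median 85.4, and its E libraries between 42.9 TPM (PAR) and 60.4 TPM (Y726F), median 51.3, with no overlap. The log2 change was -0.72 (SE 0.04, adjusted p = 2.818e-10). This fall lay in 1 transcript without a coding sequence. BCAR3-205 (1671 bases, chromosome 1 from 93752924 to 93775444) went from between 12.9 and 42.3 TPM (median 34.1) to between 0.39 and 2.34 TPM (median 1.38), by -3.78 (SE 0.11, adjusted p = 1.649e-10). The coding BCAR3-201 (70.8% of the total over all libraries, 824 residues) lay between 40.6 and 48.7 TPM in UT and between 39.0 and 48.3 TPM in E, a change of -0.05 (SE 0.03, 95% interval -0.12 to 0.02, adjusted p = 0.204).

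The share of BCAR3-205 in the gene's TPM had a median of 39.7% in UT, 2.64% in E and 3.33% in EA. Summed over protein-coding transcripts only, an alternative chosen after the data were seen, BCAR3 changed by -0.06 (SE 0.03, adjusted p = 0.0926) and no longer passed the threshold. The sum over all transcripts of BCAR3 is therefore no measure of its coding RNA in untreated cells. Untreated PAR had 12.9 TPM of BCAR3-205, and the 9 other untreated lines had between 27.2 and 42.3 TPM.

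**Figure D2:**
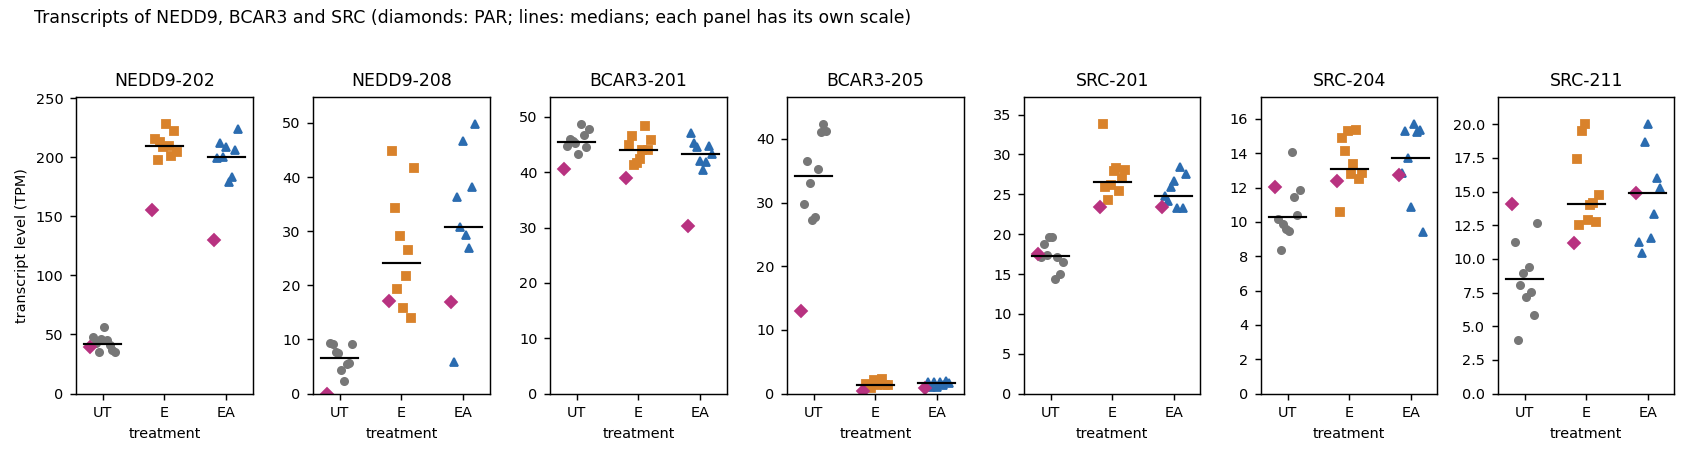
Level in TPM (y axis, from 0, own scale per panel) of 7 transcripts of NEDD9, BCAR3 and SRC by treatment (x axis), 1 point per line, with PAR as diamonds and medians as lines. BCAR3-205 had a median of 34.1 TPM in UT and 1.38 TPM in E while BCAR3-201 had 45.5 and 44.0 TPM.

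Paxillin and the adaptors downstream of CAS changed less. PXN (ENSG00000089159, chromosome 12 from 120210439 to 120265771), the adhesion scaffold that FAK and SRC phosphorylate, was the most abundant of the 10 in UT, between 173 and 204 TPM (median 195). It lay between 129 and 151 TPM in E (median 141) and between 139 and 164 TPM in EA (median 146), below every UT library in both. The log2 change with E was -0.45 (SE 0.03, adjusted p = 1.143e-08), lower in 10 of 10 lines, and over protein-coding transcripts only it was -0.37 (SE 0.03). PXN-204, 45.8% of the total, fell by 0.26 on the log2 scale (SE 0.04, adjusted p = 8.72e-05). The noncoding PXN-213, 10.2% of the total, fell by 0.80 (SE 0.14, adjusted p = 0.000684).

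CRK (ENSG00000167193, chromosome 17 from 1420689 to 1463162), the adaptor that binds phosphorylated CAS and paxillin, lay between 47.3 and 57.5 TPM in UT (median 52.1), between 40.9 and 56.1 TPM in E (median 49.9) and between 43.1 and 57.5 TPM in EA (median 49.8). The ranges overlapped. It was lower with E in 10 of 10 lines by a log2 change of -0.10 (SE 0.03, adjusted p = 0.0161), and after centring library medians (adjusted p = 0.161) or quantile normalization (adjusted p = 0.630) it did not pass. CRK-201, which codes for the longer protein (303 residues, known as CrkII), took a median of 52.0% of the gene's TPM in UT and 51.8% in E, and CRK-202 (203 residues, known as CrkI) took 47.3% and 45.2%.

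DOCK1 (ENSG00000150760, chromosome 10 from 126905409 to 127452517), the RAC activator that CRK recruits, lay between 9.59 and 12.97 TPM in UT (median 10.9), between 9.49 and 12.8 TPM in E (median 11.5) and between 11.3 and 16.2 TPM in EA (median 12.8). UT and E overlapped almost entirely, with a log2 difference of 0.04 (95% interval -0.11 to 0.19, adjusted p = 0.588). At the transcript level DOCK1-201 (71.6%, 1864 residues) rose by 0.28 (SE 0.05, adjusted p = 0.00123) in 10 of 10 lines, and DOCK1-206 (15.4%) changed by -0.25 (SE 0.13, adjusted p = 0.143). Over protein-coding transcripts only, DOCK1 changed by 0.16 (SE 0.05, adjusted p = 0.0126).

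**Figure D3:**
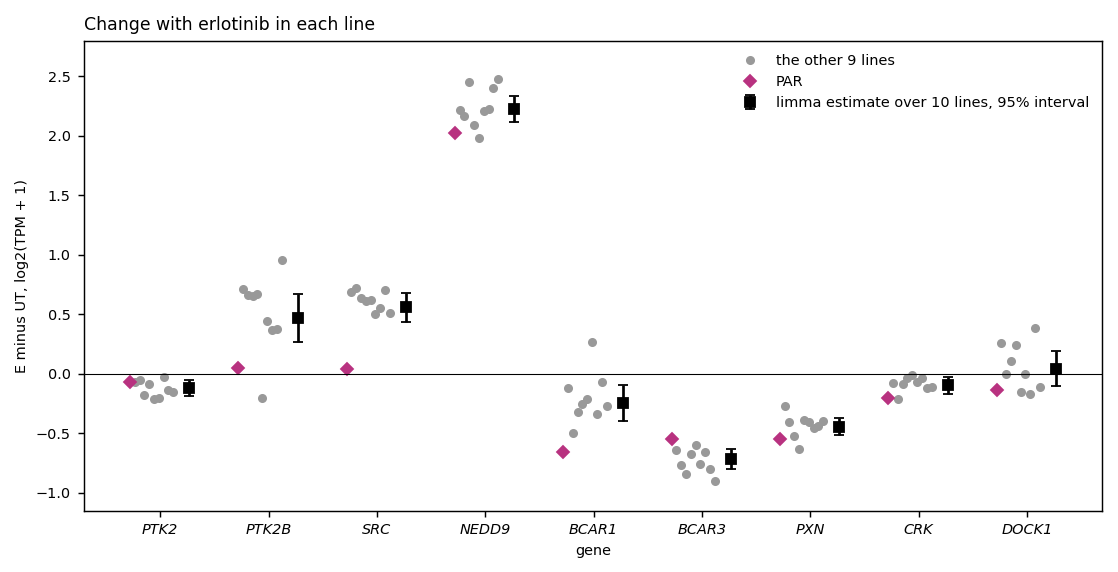
E minus UT on the log2(TPM + 1) scale (y axis) for the 9 genes tested (x axis), with 1 grey point per line, PAR as a diamond, and the limma estimate over 10 lines with its 95% interval as a black square. NEDD9 stands at 2.23, SRC in PAR at 0.04 against 0.51 to 0.72 in the other 9 lines.

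The comparison of EA with E rests on 8 lines, since KD lacks AXL kinase activity and KO has no EA library here. Per the study, only a minority of cells express AXL in the transduced lines, which are all of the 8 but PAR. A difference confined to those cells is diluted in bulk RNA. None of the 9 genes passed the threshold between EA and E (limma), against 2.36% of all genes tested, and 2 of the 9 had an unadjusted p under 0.05, against 20.9% of all genes. That count was 0 without Y634F, 1 without Y643F or Y821F, and 3 without WT. The ranges of EA and E overlapped for all 9, as for nearly all genes (0.022% did not). NEDD9 was higher with EA in 3 of 8 lines, and its log2 difference was -0.06 (95% interval -0.15 to 0.03, adjusted p = 0.428). The difference was 0.01 for PTK2 (95% interval -0.08 to 0.10, adjusted p = 0.897) and 0.01 for SRC (95% interval -0.10 to 0.11, adjusted p = 0.946).

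PTK2B and DOCK1 had the largest differences among the 9. PTK2B was lower with EA in 6 of 8 lines, most in Y634F (28.9 to 19.6 TPM) and Y821F (27.1 to 18.4 TPM), and level or slightly higher in PAR and Y750F. Its log2 difference was -0.21 (95% interval -0.37 to -0.04, unadjusted limma p = 0.0193, adjusted p = 0.152). The short PTK2B-214 (554 bases, 11.75% of the gene's TPM) went from 8.13 to 3.7e-06 TPM in Y634F and from 4.92 to 0 TPM in Y821F. In the same lines PTK2B-201 went from 11.6 to 12.2 TPM and from 14.1 to 12.2 TPM. Over the 8 lines PTK2B-201 differed by -0.10 (limma, adjusted p = 0.647) and PTK2B-214 by -1.32 (SE 0.36, adjusted p = 0.318). DOCK1 was higher with EA in 7 of 8 lines, most in Y634F (12.5 to 16.2 TPM), and lower in Y750F (12.8 to 12.0 TPM). Its log2 difference was 0.17 (95% interval 0.02 to 0.31, unadjusted limma p = 0.0252, adjusted p = 0.174), and over protein-coding transcripts only it was 0.05 (adjusted p = 0.597).

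BCAR1 went both ways with AF154, and the spread between lines was wide. It was higher with EA in WT (27.1 to 35.3 TPM), PAR (29.4 to 36.6 TPM) and Y821F (31.2 to 33.9 TPM), and lower in Y643F (31.0 to 23.0 TPM), Y698F, Y634F, Y726F and Y750F. The mean log2 difference was -0.10 (95% interval -0.31 to 0.10, adjusted p = 0.558). PXN was higher in 6 of 8 lines, by 0.08 (95% interval -0.0019 to 0.17, adjusted p = 0.251). CRK differed by 0.04 (adjusted p = 0.558) and BCAR3 by -0.06 (adjusted p = 0.474). Of 55 transcripts of these genes tested, 0 passed between EA and E (limma), where 0 of all 47921 transcripts passed. An unadjusted p under 0.05 was found for 6 of the 55, and for 4845 of all 47921.

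**Figure D4:**
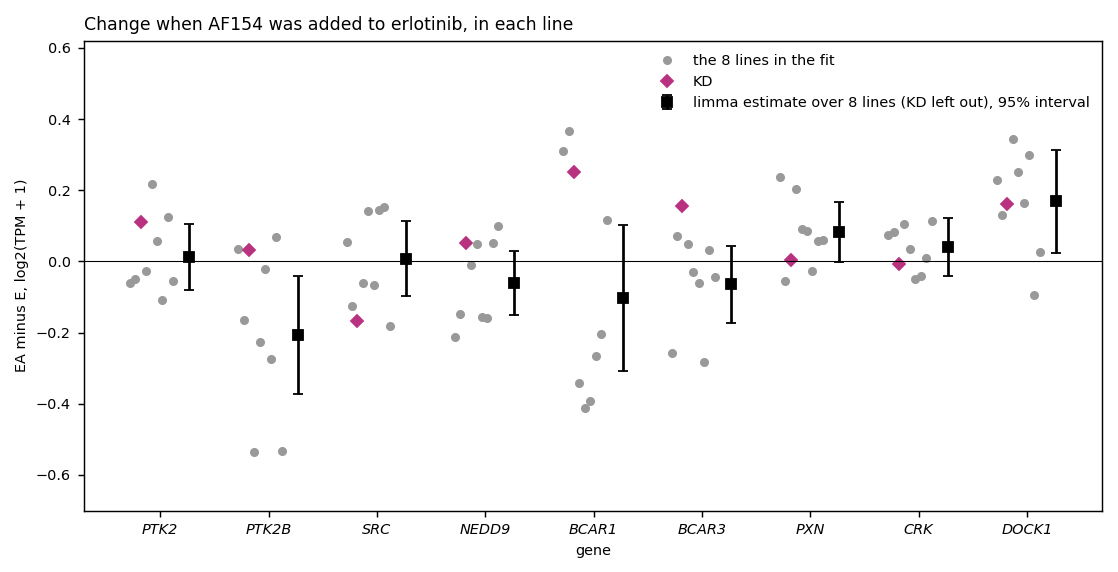
EA minus E on the log2(TPM + 1) scale (y axis) for the 9 genes tested (x axis), with 1 grey point per line of the 8 in the fit, KD as a diamond outside the fit, and the limma estimate with its 95% interval as a black square. Only the intervals of PTK2B (-0.37 to -0.04) and DOCK1 (0.02 to 0.31) leave out 0, and neither passed after adjustment.

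In KD, whose receptor lacks kinase activity, NEDD9 went from 244 to 253 TPM, PTK2B from 23.6 to 24.2 TPM, BCAR1 from 31.3 to 37.4 TPM and DOCK1 from 10.8 to 12.2 TPM when AF154 was added. Set against the change in the 8 other lines, 0 of the 9 genes passed (limma, 1 line against 8, adjusted p of 1.0 for each). No gene of the 9085 passed and 3.57% had an unadjusted p under 0.05, none of these genes among them. The interval for the NEDD9 difference, KD minus the others, was -0.20 to 0.42 on the log2 scale, and that for PTK2B was -0.27 to 0.75. KD was a single pair of libraries.

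Against untreated cells, EA gave much the same picture as E, with which it shares the UT libraries. Of the 9 genes 6 passed, 2 higher and 4 lower, against 70.6% of all genes (33.1% higher, 37.6% lower). NEDD9 was higher by 2.14 (SE 0.08, adjusted p = 4.719e-10) and SRC by 0.54 (SE 0.08, adjusted p = 5.642e-05), each in 8 of 8 lines. BCAR3 differed by -0.78 (SE 0.05), PXN by -0.38 (SE 0.04) and BCAR1 by -0.36 (SE 0.07), each lower in 8 of 8 lines. Over protein-coding transcripts only, BCAR3 differed by -0.10 (adjusted p = 0.0656) and did not pass. PTK2 differed by -0.10 (SE 0.04, adjusted p = 0.0403), which did not pass without PAR, WT, Y634F, Y698F, Y726F or Y821F (adjusted p between 0.0543 and 0.0871). Nor did PTK2 pass with centred medians (adjusted p = 0.163), quantile normalization (adjusted p = 0.601), TPM without mitochondrial genes (adjusted p = 0.109) or no line block (adjusted p = 0.242). PTK2B differed by 0.21 (SE 0.10, adjusted p = 0.0775), and passed without Y643F (0.30, adjusted p = 0.00536), with centred medians (adjusted p = 0.0453) and with the KD pair (adjusted p = 0.0284). DOCK1 differed by 0.18 (SE 0.08, adjusted p = 0.0675), and passed without Y821F (0.21, adjusted p = 0.0396), with centred medians (adjusted p = 0.0275), without mitochondrial genes (adjusted p = 0.0414), over protein-coding transcripts (adjusted p = 0.0304) and with the KD pair (adjusted p = 0.0341). CRK differed by -0.06 (adjusted p = 0.259).

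For PTK2, NEDD9, BCAR3 and CRK, the parental line lay outside the range of the knockout-derived lines in every treatment, by margins that differed. The share of all genes outside that range is not given here for PAR. On the mean of its UT and E libraries, 4 of the 9 genes passed between PAR and the rest (limma, 1 line against 9), 1 higher and 3 lower, against 30.2% of all genes (12.1% higher, 18.1% lower). With TPM rescaled without mitochondrial genes, 2 of the 9 passed (PTK2 and NEDD9), and on the UT libraries alone 3 passed (PTK2 and SRC higher, BCAR3 lower). PTK2 was higher in PAR by 0.40 on the log2 scale (SE 0.08, adjusted p = 0.00216), at 106 TPM in UT where the others lay between 75.3 and 92.4 TPM, and at 101 TPM in E where they lay between 68.6 and 79.5 TPM. PTK2 in PAR lay above the other lines in EA as well, at 96.7 against 70.9 to 92.7 TPM.

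NEDD9, BCAR3 and CRK were lower in PAR. The NEDD9 difference was -0.39 (SE 0.10, adjusted p = 0.0116). It was plainest in E, at 177 TPM against 240 to 275 TPM, and on the UT libraries alone it was -0.28 (adjusted p = 0.247). BCAR3 differed by -0.35 (SE 0.11, adjusted p = 0.0251), and did not pass on the E libraries alone (-0.26, adjusted p = 0.130) or without mitochondrial genes (-0.30, adjusted p = 0.0592). CRK differed by -0.24 (SE 0.08, adjusted p = 0.0423), which did not pass without WT, Y698F or Y726F (adjusted p between 0.0530 and 0.0600). Nor did CRK pass with a mean of at least 1 TPM (adjusted p = 0.0506), without mitochondrial genes (adjusted p = 0.0941) or on the UT libraries alone (adjusted p = 0.192). Over protein-coding transcripts only, the BCAR3 difference was -0.21 (SE 0.07). In UT the noncoding BCAR3-205 was at 12.9 TPM in PAR against 27.2 to 42.3 TPM in the other lines. The coding BCAR3-201 was at 40.6 TPM in untreated PAR against 43.3 to 48.7 TPM. In EA, PAR also had the lowest NEDD9 (153 TPM), BCAR3 (35.7 TPM) and CRK (43.1 TPM). PAR is 1 line, and its passage history and its unedited AXL cannot be told apart as sources of these differences.

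SRC was the 1 gene of the 9 whose change with E passed as different between PAR and the 9 other lines, against 5.5% of all genes (5.02% lower). PAR went from 51.6 to 53.0 TPM, a log2 change of 0.04, while the others rose by between 0.51 and 0.72. The difference was -0.58 (SE 0.12, adjusted p = 0.0192), and it stayed below 0 under every alternative run. Over all 9085 genes the median difference in this comparison was -0.12, and with library medians centred SRC differed by -0.39 (adjusted p = 0.0984), with quantile normalization by -0.43 (adjusted p = 0.0658), and over protein-coding transcripts only by -0.27 (adjusted p = 0.159). Part of the gene sum was SRC-211, which in untreated PAR was at 14.1 TPM, above the 4.002 to 12.7 TPM of the other lines. SRC-201 rose from 17.5 to 23.5 TPM in PAR. For BCAR1 the difference was -0.45 (SE 0.20) and for PTK2B -0.46 (SE 0.30), and neither passed. Over protein-coding transcripts only, it was -0.30 (SE 0.24) for BCAR1 and 0.06 (SE 0.32) for PTK2B.

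KO and the 8 lines with transduced AXL were close in these genes. On the mean of UT and E, 0 of the 9 passed (limma), against 0.022% of all genes, and 1 of the 9 (BCAR1) had an unadjusted p under 0.05, against 7.79% of all genes. BCAR1 was at 31.6 TPM in UT and 29.03 TPM in E in KO, a log2 difference of -0.20 (95% interval -0.39 to -0.01, unadjusted limma p = 0.0391, adjusted p = 0.597). The interval for NEDD9 was -0.03 to 0.37 and that for PTK2 was -0.20 to 0.15. Per the study, only a minority of the cells in the transduced populations express AXL, so this comparison sets KO against mixtures that hold KO cells.

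Around these genes, 55 partners were counted in 5 groups, which were listed with earlier results of these data known. Of the 55, 43 were tested, and 22 rose and 12 fell with E while 9 did not pass. The share that passed is near the 79.0% of all genes. Over all genes 36.4% rose and 42.6% fell, which are the shares to set beside each group count below. Of 8 LIM and adhesion proteins tested, 7 rose, 0 fell and 1 did not pass, with a median log2 change of 0.52 against -0.04 over all genes. TNS3, a tensin that links integrins to actin, rose by 1.39 (SE 0.06, adjusted p = 1.938e-11), from between 33.4 and 65.4 TPM to between 94.3 and 130 TPM. Zyxin (ZYX), a LIM protein of adhesions and stress fibres, rose by 0.91 (SE 0.04), TGFB1I1, the paxillin relative HIC-5, by 0.90 (SE 0.08), and LPP by 0.71 (SE 0.13). PXN, of the same LIM family as TGFB1I1, fell, as given above.

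Of 8 genes tested in the group of tyrosine kinases, which also holds the pseudokinase ILK, 4 rose, 1 fell and 3 did not pass. The SRC-family kinase FYN rose by 0.66 (SE 0.07) from a median of 42.6 to 68.0 TPM, and LYN by 0.35 (SE 0.08). ILK, the integrin-linked pseudokinase, rose by 0.63 (SE 0.04), and CSK, which phosphorylates the inhibitory tail tyrosine of SRC-family kinases, fell by 0.41 (SE 0.05), from a median of 68.8 to 52.1 TPM in 10 of 10 lines. Of 8 phosphatases and inhibitors, 3 rose and 5 fell. CBLB, a ubiquitin ligase for activated kinases, rose by 1.90 (SE 0.08), from between 6.20 and 12.97 TPM to between 29.3 and 48.3 TPM. RB1CC1 (FIP200), which binds and inhibits FAK, rose by 0.63 (SE 0.05), ARHGAP26 (GRAF), which binds FAK, fell by 0.75 (SE 0.07), and the phosphatase PTPN11 (SHP2) fell by 0.57 (SE 0.07).

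Of 18 adaptors and exchange factors tested, 8 rose, 5 fell and 5 did not pass. GRB7, an adaptor that binds phosphorylated FAK, rose by 0.95 (SE 0.09), NCK2 by 0.48 (SE 0.05) and ARHGEF7 (β-PIX) by 0.39 (SE 0.07), while DOCK5, a relative of DOCK1, fell by 0.52 (SE 0.08). Of the 3 CAS and NSP relatives only SH2D3A was expressed enough to test, and it fell by 0.54 on the log2 scale (SE 0.05) in 10 of 10 lines. The adjusted p of each partner named was at most 0.00129, that of LYN. Between EA and E, 0 of the 43 partners passed (limma), against 2.36% of all genes, and 6 had an unadjusted p under 0.05, against 20.9% of all genes.

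**Figure D5:**
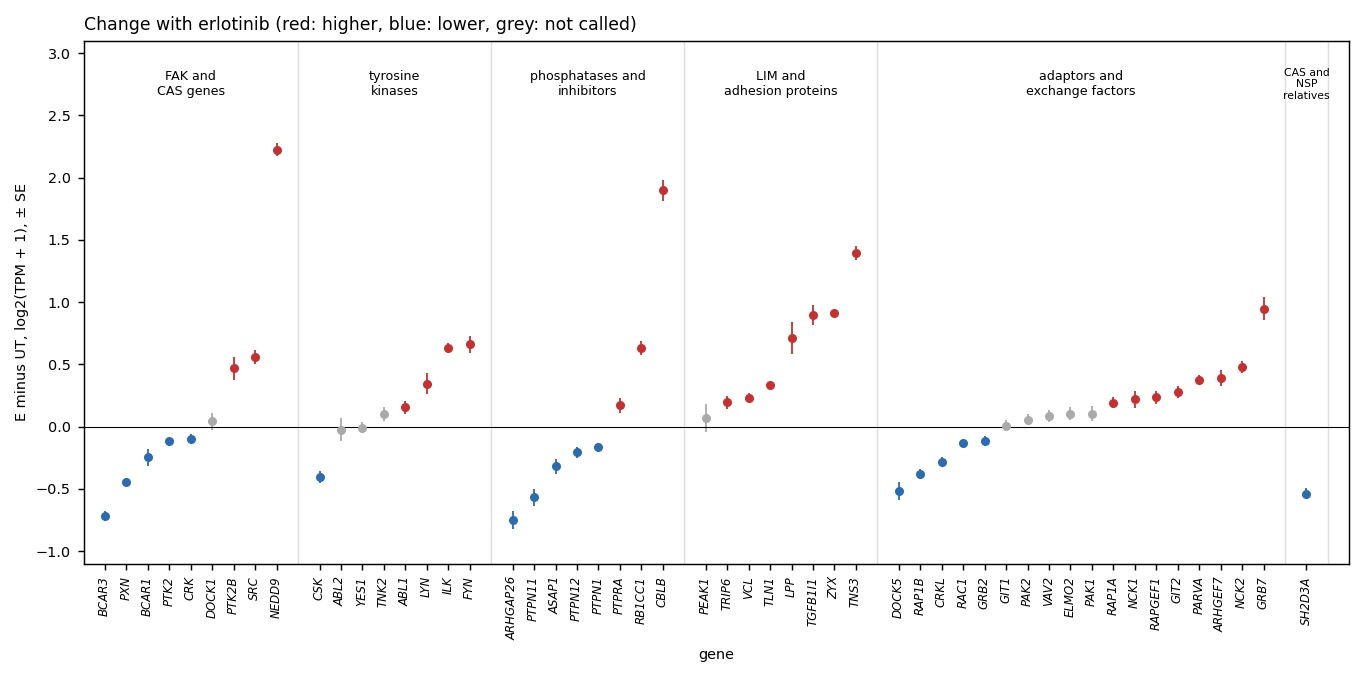
E minus UT on the log2(TPM + 1) scale (y axis) with its standard error for the 9 genes tested and 43 partners in 5 groups (x axis), red where higher, blue where lower and grey where not called by limma. NEDD9 (2.23) and CBLB (1.90) stand highest, ARHGAP26 (-0.75) and BCAR3 (-0.72, summed over all its transcripts) lowest.

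The genes whose pattern over the 29 libraries was most like that of NEDD9 were HEG1 (Pearson r 0.996), FILIP1L (0.993) and PDLIM1 (0.993). The libraries fall into untreated and treated ones, so r largely reflects that step: HEG1 had a median of 12.5 TPM in UT and 192 TPM in E, FILIP1L 17.4 and 172 TPM, and PDLIM1 117 and 506 TPM. For PTK2 they were ZFAND2A (0.873), ANKRD27 (0.860) and OVOL1 (0.850), each over the same 29 libraries, which share 10 lines.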

How the data were processed

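RNA was measured in 29 libraries of 10 PC9 lines (10 UT, 10 E and 9 EA), 1 per line and treatment, grouped by the sample labels. The authors deposited TPM per transcript, made per the labels with kallisto on GRCh38. Its version, index and strand setting are not given in the sources used here, and depth is unknown. Transcripts were matched by identifier to GENCODE 29 (169797 of 188753) and summed to 35579 genes, which held 97.0% to 97.4% of the TPM. Genes averaging 10 TPM or more over the libraries (9085) were tested on log2(TPM + 1), a scale that understates changes of low genes, with limma 3.58.1 (trend, two-sided) in R 4.3.3 and Benjamini-Hochberg adjustment over all genes (threshold 0.05). Treatments were compared with the line as a block, since libraries of a line are the same cells. Lines were compared on the mean of UT and E, and changes on differences within a line, with PAR, KO or KD as 1 line assumed to vary like the others. Transcripts with a mean of at least 1 TPM were tested alike, and those with at least 10% of a gene's TPM were described. Intervals are 95%.

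Named were the 10 genes, at most the 4 partners per group with the largest change past the threshold, AXL and EGFR as checks, markers, and the 3 genes most correlated with PTK2 and with NEDD9. EGFR lay between 103 and 258 TPM. The genes, lists and motifs were chosen with earlier results of these data known. Alternatives were a pseudocount of 0.1, filters of a mean of 1 TPM or 10 TPM in every library, centred medians, quantile normalization, TPM without mitochondrial genes, no block, other sets of lines or libraries, a mean of 5 TPM for transcripts, each line left out and, added after the data were seen, protein-coding transcripts only. Promoter rows were found in RefSeq for 7 of the 10 genes. Scripts ran in Python 3.11.15 and were tested on simulated data.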

Additional observations from a re-analysis of the deposited data

Results flagged for a closer look

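In 45 sets of values (the levels of the 9 tested genes in UT, E and EA, and their changes), single lines stood far from the others in 6. The rate of about 1 in 20 that chance gives is for independent sets, and these sets share libraries. No such count was made over all genes, so whether these genes stand out is not known. In 5 of the 6 sets the line was PAR. PTK2 in E was 101 TPM in PAR against 68.6 to 79.5 TPM in the other 9 lines. NEDD9 in E was 177 TPM in PAR against 240 to 275 TPM. BCAR3 in EA was 35.7 TPM in PAR against 49.1 to 54.2 TPM in 8 lines, and PXN in EA was 164.5 TPM against 139 to 152 TPM. The change of SRC with E was 0.0365 on the log2 scale in PAR against 0.51 to 0.72. The sixth was PTK2B in UT, 25.7 TPM in Y643F against 13.5 to 19.1 TPM.

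The change of SRC with E also differed by test between PAR and the other lines, by -0.58 on the log2 scale (limma, adjusted p = 0.0192, with a larger rise than PAR in 9 of 9 lines). PAR with E had the lowest median of the tested genes and 1 of the highest mitochondrial shares, so both were varied. With centred medians the SRC difference was -0.39 (adjusted p = 0.0984), and with TPM rescaled without mitochondrial genes it was -0.54 and still passed.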

How the results depend on the processing

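NEDD9, SRC, PTK2B, PXN and BCAR1 kept their direction and call between E and UT under all alternatives run, and no result that passed reversed. BCAR3 lost its call with protein-coding transcripts only, and DOCK1 gained one. Without the line block, which stands for the pairing of libraries from the same line, PTK2 and CRK lost theirs (adjusted p = 0.0968 and 0.0881), 6 of the 9 genes passed instead of 8, and genes called between EA and E went from 214 to 9.

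Other counts over all genes that moved were, for EA against E, 67 with a mean of 1 TPM, 361 with protein-coding transcripts, 120 with the KD pair, and 10 to 188 with a line left out (10 without Y634F, 18 without Y643F). The split was 171 higher and 43 lower, and 133 and 72 with centred medians. For PAR against the 9 lines it was 1103 and 1644, and 1412 and 1291 without mitochondrial genes. For the E change of PAR, 500 became 211 (114 higher, 97 lower, against 44 and 456) with centred medians, 153 (53 and 100) with quantile normalization, 329 without mitochondrial genes and 249 with coding transcripts, and centring moved the median of all genes from -0.12 to 0.07. Leaving out a line gave 384 to 653. For KO against the 8 lines, 2 became 0 (mean of 1 TPM, quantile normalization, coding transcripts, UT only), 1 (E only) or 4 (10 TPM in every library), and 0 to 5 with a line left out. For KD, leaving out lines gave 0 to 1. Transcripts called went from 21399 to 12168 (E against UT) and from 0 to 3 (EA against E) with a mean of 5 TPM, where 18084 were tested. The cause of these moves was not tested. TPM keeps no depth, so counting error is not included in any interval.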
